A study of Homo sapiens with 9 samples.

Results

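Tight junctions are described here through 9 genes: the claudins CLDN1, CLDN4 and CLDN7, the MARVEL-domain proteins OCLN (occludin) and MARVELD2 (tricellulin), the adhesion receptor F11R (JAM-A), and the cytoplasmic scaffold proteins TJP1 (ZO-1), TJP3 (ZO-3) and CGN (cingulin). They were chosen by name and matched by Ensembl identifier to GENCODE 29 symbols. All 9 were found among the 59107 gene entries with a value, and all 9 were among the 13777 genes that reached 1 FPKM in at least 3 libraries and were tested. RNA was sequenced from the human nasopharyngeal carcinoma line HK1 in 9 libraries, 48 h after transfection. The groups were si-E2F3 (siRNA against E2F3, 100 nM, 3 libraries), si-E2F1 (siRNA against E2F1, 100 nM, 3 libraries) and Control (non-targeting siRNA, 100 nM, 3 libraries). All groups were of the same line, in the same serum-containing medium, and all received an siRNA, so no untransfected cells are compared. The siRNA sequences, and whether each target was hit by 1 sequence or a pool, are not stated in the sources used here.

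Tight junctions seal the space between neighbouring epithelial cells near the apical surface. Claudins form the paracellular strands and set which ions pass, occludin and tricellulin shape the strands at contacts of cell pairs and at the corners where more cells meet, and JAM-A helps to place the junction during assembly. Inside the cell, the ZO proteins tie the strands to actin, and cingulin binds the ZO proteins and the actomyosin belt. E2F1 and E2F3, the targets of the siRNAs, are transcription factors that activate genes needed for DNA replication.

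CLDN4, CLDN1 and CGN, 3 of the 9 genes, were called lower after each siRNA, as were 5.39% of all genes tested. Sequence upstream of the RefSeq start sites of these 3 genes is shown here for that reason. RefSeq (GRCh38.p14) had promoter windows for 8 of the 9 genes, 14 windows in all; F11R was not among them. The 250 bases before each start were searched on both strands for TTTCGCGC and TTTGGCGC (exact forms of the E2F consensus site). The search also covered CACCTG (the E-box bound by SNAIL and ZEB factors) and TGANTCA (the AP-1 site). Capitals mark a match to TGANTCA, and stretches that GENCODE 29 annotates as exon are left out, apart from short pieces around the matches of CLDN4, whose whole window lies in an exon of longer CLDN4 transcripts.
CLDN4, plus strand, chr7:73830746-73830768: ctgggctgTGATTCAgtgtctgt
CLDN4, plus strand, chr7:73830827-73830849: ctggatagTGACTCAgggacccg
CLDN1, minus strand, chr3:190322476-190322540: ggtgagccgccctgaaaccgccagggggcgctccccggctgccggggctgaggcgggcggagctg
CGN, plus strand, chr1:151511137-151511386: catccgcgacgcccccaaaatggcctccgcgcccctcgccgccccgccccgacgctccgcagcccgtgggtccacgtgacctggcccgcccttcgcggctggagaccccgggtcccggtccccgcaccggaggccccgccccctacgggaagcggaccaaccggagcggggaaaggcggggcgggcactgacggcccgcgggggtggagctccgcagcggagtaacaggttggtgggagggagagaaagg

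The letters TGANTCA occurred only in the CLDN4 window among the 14, at bases -242 to -236 and -161 to -155 from the start, and 6.57% of all 35116 windows hold them. CACCTG was found in a window of each of CLDN7, OCLN, TJP1 and TJP3, and 17.5% of all windows hold it. Each of these genes has several windows, so the number of genes cannot be set against that share of windows. Neither E2F string occurred in any of the 14 windows, and such strings are rare in the whole table (TTTCGCGC in 0.439% and TTTGGCGC in 0.550% of windows). Other forms of the E2F site were not searched. The windows of CGN (76.0% G and C) and CLDN1 (68.8%) were richer in G and C than the median window (58.0%), and that of CLDN4 was at 58.8%. Windows of CLDN7 (60.4% and 71.2%) and OCLN (68.8% and 70.8%), which were called in no comparison, also lay above that median. Of the 14 windows, only a TJP1 window (34.8%) lay under it. A match is a description of the letters, and binding was not measured.

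Each siRNA library had less of the transcript that its label names as the target. E2F3 was at 12.61, 10.52 and 11.02 FPKM in si-E2F3 libraries, against 24.74, 27.17 and 24.42 FPKM in Control, and E2F1 was at 7.17, 7.95 and 7.33 FPKM in si-E2F1 libraries, against 19.85, 19.53 and 20.2 FPKM in Control. Depth, read from the steps in the FPKM of short genes, was 0.969 to 0.984 times that of Control replicate 1 after si-E2F3, 0.887 to 1.13 times after si-E2F1 and 0.844 to 1.20 times in Control, and the absolute depth is not given in the sources used here. Of 11 epithelial markers, 10 reached 1 FPKM in every group, while GRHL2 stayed at or under 0.06 FPKM in every library. The summed level of the 11 was 1894 to 2001 FPKM after si-E2F3, 2000 to 2117 FPKM after si-E2F1 and 2816 to 2850 FPKM in Control. This sum was lower in every siRNA library, and its part in the junction results was not tested. Its largest parts in Control were KRT8 (mean 844 FPKM) and KRT17 (767 FPKM). KRT5, KRT6A, KRT8, KRT14, KRT17, KRT18 and TP63 were called lower after both siRNAs. KRT19 was called lower only after si-E2F3, and CDH1 only after si-E2F1. EPCAM was called after neither, at a mean of 177 FPKM after si-E2F3, 195 FPKM after si-E2F1 and 175 FPKM in Control. Endothelial markers summed to at most 1.98 FPKM and immune markers to at most 1.34 FPKM in any library. The 6 fibroblast markers, of which 3 reached 1 FPKM in a library after si-E2F3, 1 after si-E2F1 and 2 in Control, summed to 15.1 to 17.6 FPKM after si-E2F3, 18.2 to 20.8 FPKM after si-E2F1 and 14.1 to 15.8 FPKM in Control. Most of the fibroblast sum was COL1A1, at a mean of 14.0 FPKM after si-E2F3, 17.9 FPKM after si-E2F1 and 12.8 FPKM in Control. The other fibroblast markers averaged at most 1.01 FPKM in any group. Of these, COL3A1, LUM, DCN and PDGFRB had lower means after si-E2F1 than in Control, and COL1A2 a higher one. In RNA from whole cultures, fewer cells of a type and less RNA per cell cannot be told apart.

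FPKM is a level per kilobase of transcript, so the 9 genes can be ranked within a group. F11R led in every group, with a Control mean at the 91.5th percentile of the genes tested, and CLDN1 was lowest, at the 21.5th percentile. In Control the order was F11R, OCLN, TJP1, CLDN4, CLDN7, TJP3, MARVELD2, CGN and CLDN1, and the ranges of no neighbouring pair overlapped. CLDN4, in place 4 of 9 in Control, stood in place 6 in si-E2F3 and in si-E2F1 libraries. After si-E2F3 the order was F11R, OCLN, TJP1, CLDN7, MARVELD2, CLDN4, TJP3, CGN and CLDN1, again with no overlap between neighbours. The order after si-E2F1 was F11R, OCLN, TJP1, CLDN7, TJP3, CLDN4, MARVELD2, CGN and CLDN1, in which OCLN and TJP1, and TJP3 and CLDN4, overlapped. Within groups the SD was between 1.26% of the mean (CLDN7 in Control) and 12.1% (TJP3 after si-E2F3).

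**Figure D1:**
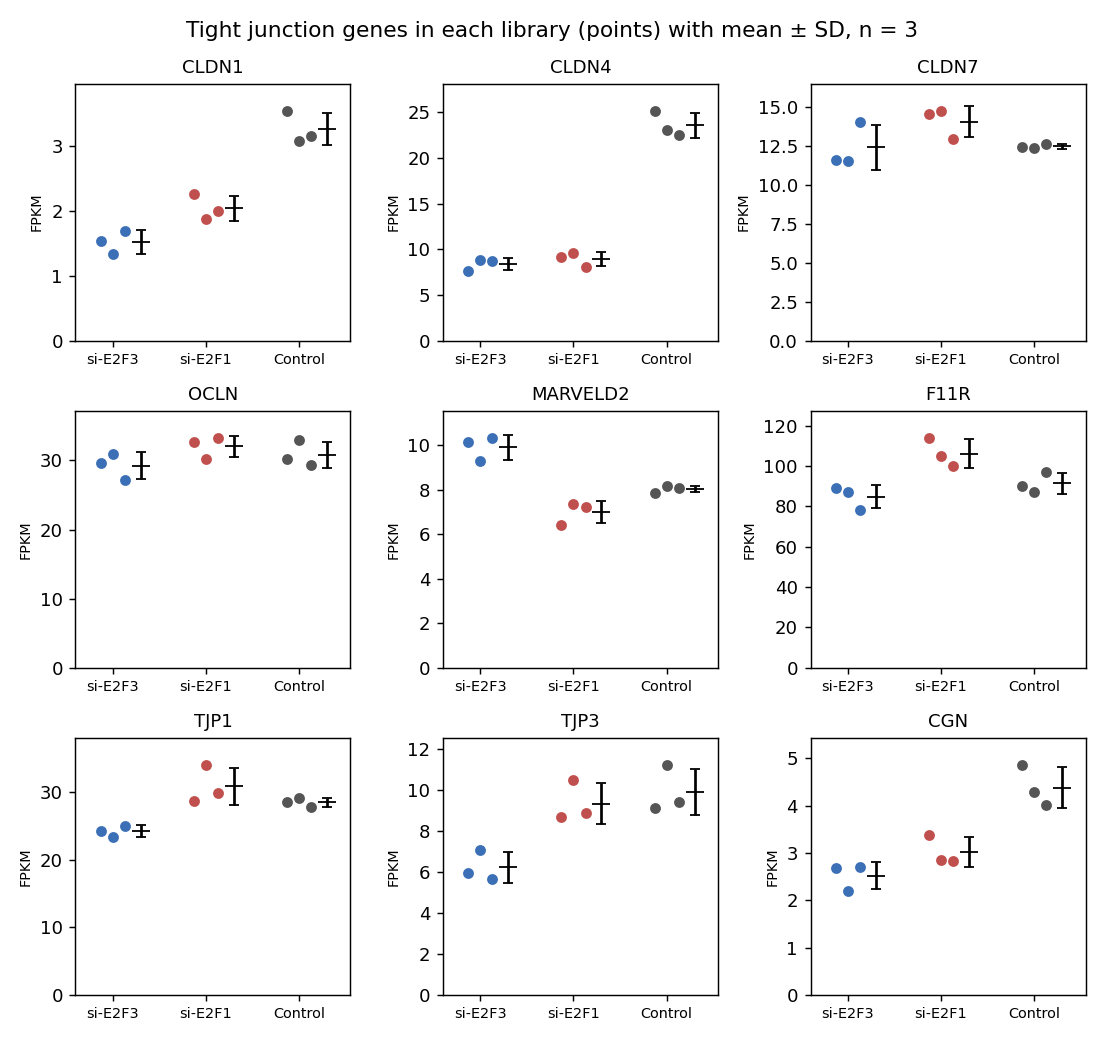
Level of each of the 9 tight junction genes in FPKM (vertical axes, each starting at 0) for si-E2F3, si-E2F1 and Control. Points are libraries and the bar beside them is the mean with its SD (n = 3). CLDN4, CLDN1 and CGN lie lower in every siRNA library than in every Control library, and MARVELD2 lies highest after si-E2F3.

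Each gene's difference was tested with limma on log2(FPKM + 1) in a single fit over all 13777 genes, with Benjamini-Hochberg adjusted p and a threshold of 0.05; adding 1 understates the changes of low genes such as CLDN1 and CGN. After si-E2F3, 6 of the 9 genes were called against Control, where 37.6% of all genes tested were. Of these, 1 was higher (21.1% of all genes) and 5 were lower (16.4% of all genes), and the median log2 change of the 9 was -0.23, against 0.04 over all genes. After si-E2F1, 4 of the 9 were called against Control, a share close to the 37.8% of all genes; 1 was higher (20.5% of all genes) and 3 were lower (17.3% of all genes), with a median of -0.08 against 0.03. After si-E2F3, 6 of the 9 had libraries that did not overlap Control (49.5% of all genes), 5 of them lower (21.0%) and 1 higher (28.6%). After si-E2F1 the count was also 6 (50.3% of all genes), with 4 lower (22.6%) and 2 higher (27.7%). The 9 genes were named with earlier results known, so no test was made over the list, and both comparisons use the same 3 Control libraries. P-values here measure only the spread between these libraries, because the labels leave it unsaid whether the cultures behind them were separate.

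The claudins did not move as 1 block: CLDN4 and CLDN1 fell after both siRNAs, and CLDN7 was called after neither. CLDN4, a barrier-forming claudin of simple epithelia (GRCh38 7:73799542-73832693), was at 7.6, 8.78 and 8.67 FPKM after si-E2F3, at 9.17, 9.57 and 8.05 FPKM after si-E2F1, and at 25.13, 23.04 and 22.55 FPKM in Control. Every siRNA library lay far under every Control library. Its mean was 8.35 ± 0.652 FPKM after si-E2F3, 8.93 ± 0.788 FPKM after si-E2F1 and 23.6 ± 1.37 FPKM in Control (SD, n = 3 each), which is 64.6% lower after si-E2F3 and 62.1% lower after si-E2F1. On the log2 scale CLDN4 fell by 1.39 after si-E2F3 (SE 0.08; limma adjusted p = 1.95e-06) and by 1.31 after si-E2F1 (SE 0.08; limma adjusted p = 2.50e-06). These were the largest changes among the 9 genes in each comparison with Control.

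CLDN1, a barrier claudin that is essential in epidermis (3:190305701-190322475, minus strand), was the lowest of the 9 genes. It was at 1.53, 1.33 and 1.69 FPKM after si-E2F3, at 2.25, 1.87 and 1.99 FPKM after si-E2F1, and at 3.53, 3.07 and 3.15 FPKM in Control. The 3 groups did not overlap each other, with si-E2F3 lowest and Control highest. CLDN1 fell by 0.76 on the log2 scale after si-E2F3 (SE 0.10; limma adjusted p = 3.69e-04), a mean 53.3% lower, and by 0.49 after si-E2F1 (SE 0.10; limma adjusted p = 0.00467), a mean 37.3% lower. Set directly against si-E2F1, si-E2F3 gave a log2 difference of -0.27 (95% interval -0.50 to -0.04) that did not pass the adjusted test (limma adjusted p = 0.0570). It passed narrowly with 0.1 added in place of 1 (log2 -0.40; limma adjusted p = 0.0499) and with RLE scaling (log2 -0.28; limma adjusted p = 0.0492).

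CLDN7, a claudin of lateral membranes as well as junctions (17:7259903-7263983, minus strand), was at 11.58, 11.55 and 14.06 FPKM after si-E2F3, at 14.54, 14.73 and 12.91 FPKM after si-E2F1, and at 12.41, 12.34 and 12.64 FPKM in Control. The si-E2F3 libraries lay on both sides of Control, and the si-E2F1 libraries lay just above it. Neither difference passed the limma test: the log2 value was -0.01 after si-E2F3 (95% interval -0.20 to 0.17; adjusted p = 0.919) and 0.16 after si-E2F1 (-0.03 to 0.35; adjusted p = 0.163). CLDN7 overlaps ELP5 on the opposite strand, and strand use in counting is not given in the sources used here, so reads of the pair may not have been told apart. ELP5, a subunit of the Elongator complex, was at 56.78, 63.96 and 63.06 FPKM after si-E2F3, at 75.49, 74.5 and 83.54 FPKM after si-E2F1, and at 61.06, 59.73 and 62.42 FPKM in Control.

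With CLDN4 down and CLDN7 not called, the ratio of CLDN4 to CLDN7 was 0.678 ± 0.0741 after si-E2F3, 0.635 ± 0.0135 after si-E2F1 and 1.89 ± 0.122 in Control (SD, n = 3 each). CLDN4 was thus above CLDN7 in every Control library and below it in every siRNA library. Over all 24 claudin genes in the annotation, of which 8 reached 1 FPKM in a library and 4 were listed at 0 throughout, the summed level was 57.2, 54.43 and 56.91 FPKM after si-E2F3, 60.33, 61.03 and 55.99 FPKM after si-E2F1, and 78.68, 78.16 and 76.52 FPKM in Control. The sum was lower in every siRNA library. CLDN4 made up 70.5% of the difference of the means after si-E2F3 and 78.4% after si-E2F1.

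As shares of that sum, CLDN4 held 14.9 ± 1.45% after si-E2F3, 15.1 ± 0.659% after si-E2F1 and 30.3 ± 1.42% in Control. CLDN7 held 22.1 ± 2.35% after si-E2F3, 23.8 ± 0.613% after si-E2F1 and 16.0 ± 0.426% in Control. CLDN1 held 2.70 ± 0.264% after si-E2F3, 3.45 ± 0.345% after si-E2F1 and 4.18 ± 0.284% in Control. The largest share in each group was that of CLDN12, a claudin without the usual binding motif for ZO proteins, at 47.8 ± 3.66% after si-E2F3, 46.2 ± 0.817% after si-E2F1 and 39.5 ± 1.74% in Control (SD, n = 3 each throughout). CLDN12, singled out for this level after its values were seen, did not pass the limma test in its own right (log2 -0.19, adjusted p = 0.0536 after si-E2F3; log2 -0.16, adjusted p = 0.0884 after si-E2F1). A share rises when another gene falls, so these shares are no separate evidence of a change in CLDN7 or CLDN12, and with 3 libraries against 3 an exact permutation test of a share cannot reach 0.05.

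**Figure D2:**
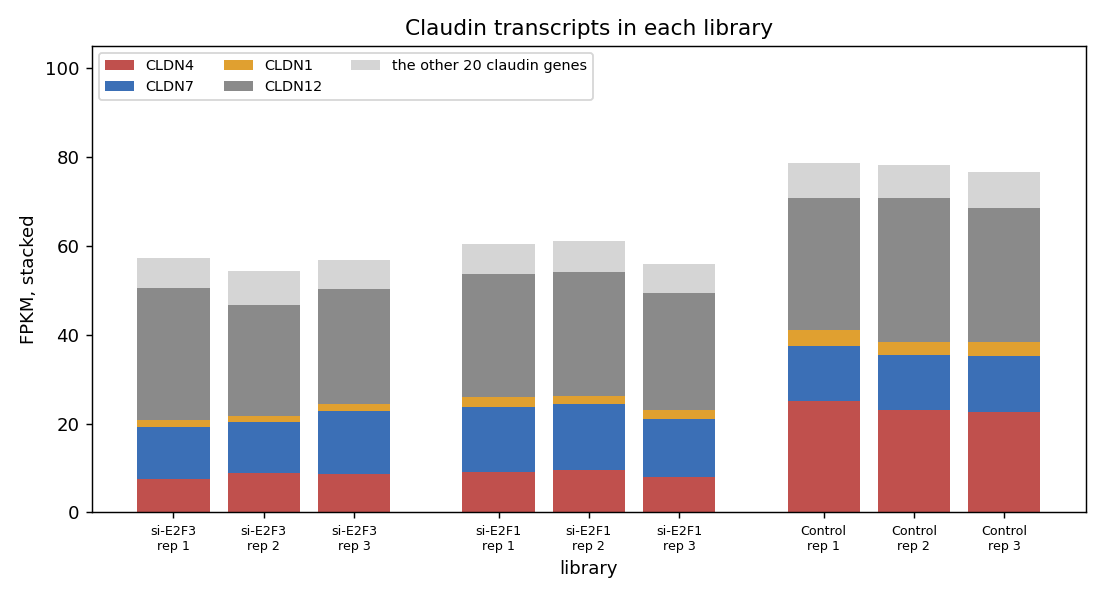
Claudin transcripts in each of the 9 libraries, stacked, in FPKM (vertical axis from 0), with si-E2F3, si-E2F1 and Control from left to right. The CLDN4 segment at the base is 22.55 to 25.13 FPKM in Control and at most 9.57 FPKM in the siRNA libraries, while the CLDN7 segment is 11.55 to 14.73 FPKM throughout.

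Of the MARVEL-domain pair, OCLN was called in no comparison and MARVELD2 rose after si-E2F3. OCLN (5:69492292-69558104), which binds ZO-1 and lines the strands, was at 29.6, 30.98 and 27.22 FPKM after si-E2F3, at 32.62, 30.28 and 33.21 FPKM after si-E2F1, and at 30.16, 32.94 and 29.34 FPKM in Control. All groups overlapped each other. The log2 difference from Control was -0.07 after si-E2F3 (95% interval -0.22 to 0.08; limma adjusted p = 0.420) and 0.06 after si-E2F1 (-0.09 to 0.20; limma adjusted p = 0.548). The copy OCLNP1, a pseudogene that could share reads with OCLN, was at most 0.21 FPKM.

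MARVELD2, the protein of tricellular corners (5:69415065-69444330), was at 10.17, 9.28 and 10.32 FPKM after si-E2F3, at 6.43, 7.35 and 7.25 FPKM after si-E2F1, and at 7.88, 8.17 and 8.07 FPKM in Control. The si-E2F3 libraries were all above Control and the si-E2F1 libraries all below it. MARVELD2 rose by log2 0.27 after si-E2F3 (SE 0.07; limma adjusted p = 0.0151), a mean 23.4% higher, and the call was lost without si-E2F3 replicate 3 (log2 0.25; limma adjusted p = 0.0539). After si-E2F1 its log2 difference was -0.18 (95% interval -0.34 to -0.01), which did not pass (limma adjusted p = 0.0833). The direct difference between the knockdowns passed, with MARVELD2 higher by log2 0.45 after si-E2F3 than after si-E2F1 (SE 0.07; limma adjusted p = 7.62e-04). The ratio of MARVELD2 to OCLN was 0.341 ± 0.0399 after si-E2F3, 0.219 ± 0.0228 after si-E2F1 and 0.261 ± 0.0135 in Control (SD, n = 3 each).

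F11R, the immunoglobulin-like receptor of the junction (1:160995211-161021348, minus strand), was at 88.97, 87.33 and 78.38 FPKM after si-E2F3, at 113.83, 105.1 and 99.91 FPKM after si-E2F1, and at 90.0, 87.19 and 97.28 FPKM in Control. The si-E2F1 libraries were all above the Control libraries, if only just for the nearest pair. F11R rose by log2 0.21 after si-E2F1 (SE 0.07; limma adjusted p = 0.0294), a mean 16.2% higher. That call was lost without Control replicate 1 (log2 0.20; adjusted p = 0.0809), Control replicate 2 (log2 0.18; adjusted p = 0.0971), si-E2F1 replicate 1 (log2 0.16; adjusted p = 0.105) or si-E2F1 replicate 2 (log2 0.22; adjusted p = 0.0600), and when no filter on low values was used (log2 0.21; adjusted p = 0.0820). After si-E2F3 the log2 difference was -0.11 (95% interval -0.26 to 0.04; limma adjusted p = 0.232). Directly compared, F11R was lower by log2 -0.32 after si-E2F3 than after si-E2F1 (SE 0.07; limma adjusted p = 0.00321). A protein-coding gene annotated over F11R on the same strand, AL591806.3, was at 18.9 to 27.57 FPKM and can share reads with F11R.

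The scaffold proteins under the membrane split: CGN fell after both siRNAs, and TJP1 and TJP3 fell after si-E2F3 and were not called after si-E2F1. CGN (1:151510510-151538692) was at 2.68, 2.19 and 2.7 FPKM after si-E2F3, at 3.39, 2.85 and 2.82 FPKM after si-E2F1, and at 4.85, 4.29 and 4.01 FPKM in Control. As with CLDN1, the 3 groups did not overlap each other. CGN fell by 0.61 on the log2 scale after si-E2F3 (SE 0.11; limma adjusted p = 0.00157), a mean 42.4% lower, and by 0.42 after si-E2F1 (SE 0.11; limma adjusted p = 0.0111), a mean 31.1% lower. The direct difference, log2 -0.19 for si-E2F3 against si-E2F1 (95% interval -0.43 to 0.05), did not pass (limma adjusted p = 0.175).

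TJP3, the ZO protein found mainly in epithelia (19:3708109-3750813), was at 5.96, 7.08 and 5.64 FPKM after si-E2F3, at 8.65, 10.45 and 8.86 FPKM after si-E2F1, and at 9.09, 11.18 and 9.4 FPKM in Control. The si-E2F3 libraries were under all other libraries, and those of si-E2F1 overlapped Control. TJP3 fell by 0.59 on the log2 scale after si-E2F3 (SE 0.11; limma adjusted p = 0.00206), a mean 37.0% lower. After si-E2F1 the log2 difference was -0.08 (95% interval -0.32 to 0.16; limma adjusted p = 0.612). The direct difference passed at log2 -0.51 for si-E2F3 against si-E2F1 (SE 0.11; limma adjusted p = 0.00346).

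TJP1, the central ZO scaffold (15:29699367-29968865, minus strand), was at 24.23, 23.31 and 25.08 FPKM after si-E2F3, at 28.78, 33.97 and 29.9 FPKM after si-E2F1, and at 28.61, 29.12 and 27.77 FPKM in Control. Again the si-E2F3 libraries were under all others. TJP1 fell by 0.23 on the log2 scale after si-E2F3 (SE 0.06; limma adjusted p = 0.0199), a mean 15.1% lower, and the call was lost without Control replicate 1 (log2 -0.22; adjusted p = 0.0547), Control replicate 2 (log2 -0.21; adjusted p = 0.0594) or si-E2F3 replicate 2 (log2 -0.20; adjusted p = 0.0608). After si-E2F1 the log2 difference was 0.11 (95% interval -0.04 to 0.25; limma adjusted p = 0.216). Directly compared, TJP1 was lower by log2 -0.34 after si-E2F3 than after si-E2F1 (SE 0.06; limma adjusted p = 0.00209). The ratio of TJP3 to TJP1 was 0.258 ± 0.0408 after si-E2F3, 0.302 ± 0.00571 after si-E2F1 and 0.347 ± 0.0339 in Control (SD, n = 3 each).

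**Figure D3:**
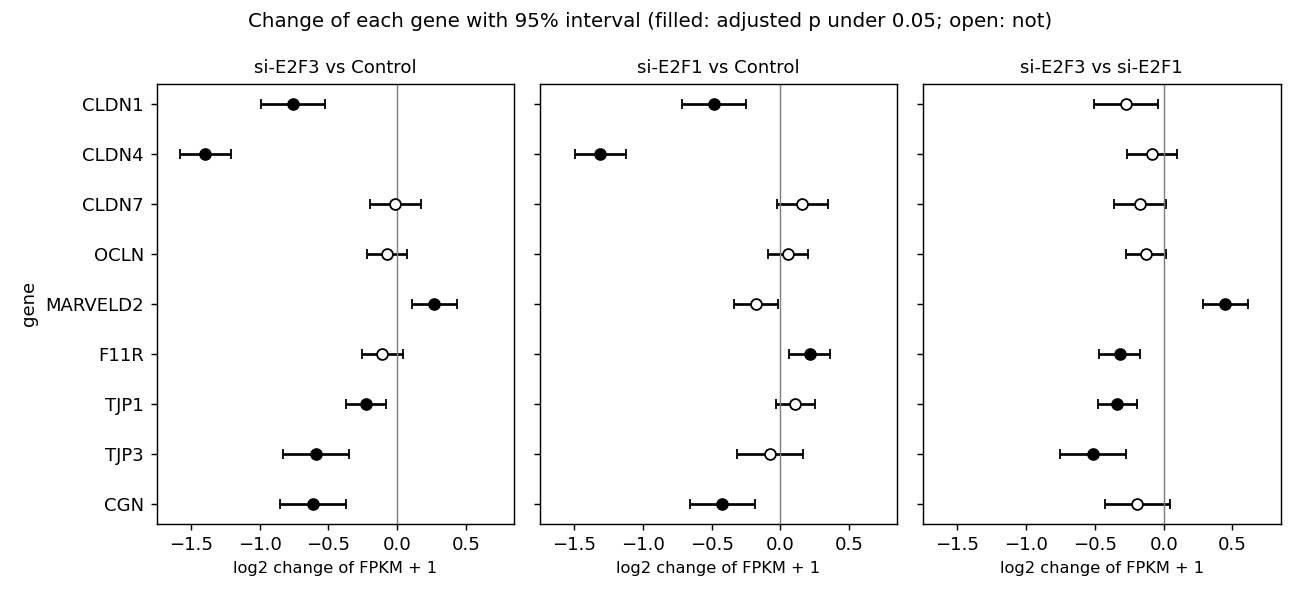
Change of each tight junction gene as a log2 difference of FPKM + 1 (horizontal axis) with its 95% interval, for si-E2F3 against Control, si-E2F1 against Control and si-E2F3 against si-E2F1. Filled points have an adjusted p under 0.05. CLDN4 stands far to the left in both comparisons with Control, at -1.39 after si-E2F3 and -1.31 after si-E2F1, and near 0 between the knockdowns.

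In the direct comparison of the knockdowns, 4 of the 9 genes were called, close to the 45.5% of all genes. The 1 higher after si-E2F3 than after si-E2F1 (23.5% of all genes) was MARVELD2, and the 3 lower (22.0% of all genes) were TJP1, TJP3 and F11R. The median log2 difference of the 9 was -0.19, against 0.02 over all genes, and 6 of the 9 had groups that did not overlap (53.8% of all genes), 5 of them lower (25.9%) and 1 higher (27.9%). CLDN4, with the largest change against Control, had a direct difference of log2 -0.09 (95% interval -0.27 to 0.10; limma adjusted p = 0.425). For CLDN7 it was -0.17 (limma adjusted p = 0.122), a value that passed without si-E2F3 replicate 3 (log2 -0.26; adjusted p = 0.0213), and for OCLN it was -0.13 (limma adjusted p = 0.145).

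Beyond the 9, 77 further tight junction genes were listed by their textbook roles (other claudins, MARVEL and tricellular proteins, immunoglobulin-like receptors, scaffolds, polarity complexes and regulators), and 49 of them passed the filter on low values. After si-E2F3, 9 rose (21.1% of all genes), 10 fell (16.4% of all genes) and 30 did not pass, with a median log2 change of 0.01. After si-E2F1, 7 rose (20.5% of all genes), 14 fell (17.3% of all genes) and 28 did not pass, with a median of -0.03. The shares called in either direction, 38.8% after si-E2F3 and 42.9% after si-E2F1, are near those of all genes. By direction they differed after si-E2F1, where falls outnumbered rises in this list and rises outnumbered falls over all genes. No test was made over the list. In the direct comparison 14 were higher (23.5% of all genes) and 12 lower (22.0% of all genes) after si-E2F3, which is 53.1% called against 45.5%.

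Among the other claudins only 5 were tested, and 1 was called against Control in each comparison: CLDN9 after si-E2F3 and CLDN23 after si-E2F1, the second named after its values were seen. CLDN9, best known from the inner ear, averaged 1.64 ± 0.330 FPKM after si-E2F3, 2.35 ± 0.0493 FPKM after si-E2F1 and 2.90 ± 0.0907 FPKM in Control (SD, n = 3 each), and fell by 0.57 on the log2 scale after si-E2F3 (SE 0.11; limma adjusted p = 0.00271). CXADR, the coxsackievirus and adenovirus receptor of the same immunoglobulin-like class as F11R, averaged 16.0 ± 0.470 FPKM after si-E2F3, 12.1 ± 0.528 FPKM after si-E2F1 and 15.8 ± 0.279 FPKM in Control. It fell by 0.36 after si-E2F1 (SE 0.06; limma adjusted p = 6.65e-04), the comparison in which F11R rose.

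MARVELD1, a MARVEL-domain relative of OCLN and MARVELD2, moved in opposite directions in the comparisons with Control. It averaged 36.4 ± 2.29 FPKM after si-E2F3, 19.1 ± 0.678 FPKM after si-E2F1 and 27.2 ± 0.855 FPKM in Control, so it rose by log2 0.40 after si-E2F3 (SE 0.06; limma adjusted p = 4.77e-04) and fell by 0.49 after si-E2F1 (SE 0.06; limma adjusted p = 1.31e-04). The direct difference was log2 0.89 (SE 0.06; limma adjusted p = 1.85e-06). MARVELD2 lay on the same sides of Control, with only its rise after si-E2F3 called.

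The list of other scaffold proteins was led by angiomotin-like proteins, which bind polarity proteins and the transcriptional cofactor YAP. AMOTL2 averaged 39.5 ± 1.01 FPKM after si-E2F3, 28.2 ± 0.763 FPKM after si-E2F1 and 58.7 ± 2.60 FPKM in Control, a fall of 0.56 after si-E2F3 (limma adjusted p = 1.90e-05) and of 1.03 after si-E2F1 (limma adjusted p = 3.68e-07) on the log2 scale. AMOTL1 went the other way, at 50.4 ± 0.878 FPKM after si-E2F3, 48.1 ± 1.18 FPKM after si-E2F1 and 34.7 ± 1.47 FPKM in Control (log2 0.53, limma adjusted p = 1.94e-05 after si-E2F3; log2 0.46, limma adjusted p = 3.79e-05 after si-E2F1). MAGI3, a membrane-associated guanylate kinase like the ZO proteins, rose by log2 0.40 after si-E2F3 (limma adjusted p = 0.00238) and was at log2 0.20 after si-E2F1 (limma adjusted p = 0.0620).

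Of 13 polarity genes tested, 3 rose and 3 fell after si-E2F3 (46.2% called, against 37.6% of all genes), and 1 rose and 2 fell after si-E2F1 (23.1% called, against 37.8% of all genes). MPP5 (PALS1), which joins the Crumbs complex to the junction, averaged 31.9 ± 1.86 FPKM after si-E2F3, 16.3 ± 0.395 FPKM after si-E2F1 and 24.8 ± 2.16 FPKM in Control. It rose by log2 0.35 after si-E2F3 (SE 0.07; limma adjusted p = 0.00313) and fell by 0.57 after si-E2F1 (SE 0.07; limma adjusted p = 1.49e-04). PRKCI, the atypical protein kinase C of the PAR complex, showed the same opposition, at 107 ± 6.83 FPKM after si-E2F3, 65.1 ± 1.22 FPKM after si-E2F1 and 93.5 ± 2.84 FPKM in Control. Its fall after si-E2F1 was 0.51 on the log2 scale (limma adjusted p = 3.65e-05), while its rise after si-E2F3 (log2 0.19; limma adjusted p = 0.0146) was lost without Control replicate 3 (log2 0.17; adjusted p = 0.0559). LLGL1, a basolateral polarity protein, had a mean of 4.95 ± 0.378 FPKM after si-E2F3, 10.7 ± 0.151 FPKM after si-E2F1 and 10.9 ± 0.302 FPKM in Control. It fell by 1.001 after si-E2F3 (SE 0.07; limma adjusted p = 4.37e-06), and the direct difference was -0.97 (SE 0.07; limma adjusted p = 3.04e-06).

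Among 18 regulators of the junction tested, 3 rose and 3 fell after si-E2F3 (33.3% called, against 37.6% of all genes). After si-E2F1, 5 rose (20.5% of all genes) and 8 fell (17.3% of all genes), which is 72.2% called against 37.8%, with no test made over the list. Several of these regulators were at high levels, such as RHOA (mean 329 FPKM in Control) and RAC1 (192 FPKM). Under a filter of 5 FPKM, 46.9% of all genes were called after si-E2F1, and the part of level in the regulators' share was not tested. PRSS8 (prostasin), a membrane-anchored protease of epithelia, averaged 4.23 ± 0.251 FPKM after si-E2F3, 2.71 ± 0.173 FPKM after si-E2F1 and 5.44 ± 0.440 FPKM in Control. PRSS8 fell by 0.79 on the log2 scale after si-E2F1 (limma adjusted p = 8.24e-05) and by 0.30 after si-E2F3 (limma adjusted p = 0.0230), where the call was lost without Control replicate 1 (-0.25; 0.0897), Control replicate 3 (-0.31; 0.0525), si-E2F3 replicate 1 (-0.29; 0.0601) or si-E2F3 replicate 2 (-0.27; 0.0678), each given as log2 change and adjusted p. MYLK, the myosin light chain kinase, fell by 0.92 after si-E2F1 (SE 0.19; limma adjusted p = 0.00419) and was at -0.45 after si-E2F3 (limma adjusted p = 0.0954), with Control libraries that spread from 2.61 to 5.08 FPKM. Without Control replicate 2, the highest of them, the MYLK log2 value was -0.21 after si-E2F3 and -0.68 after si-E2F1, where it was still called. ROCK1, a kinase acting on the same myosin, fell by 0.54 after si-E2F3 (SE 0.07; limma adjusted p = 3.55e-04) and was at -0.13 after si-E2F1 (limma adjusted p = 0.201). RAB13, a small GTPase that delivers junction proteins, was named after its values were seen. It was chosen because, like MARVELD1, MPP5 and PRKCI, it was called higher after si-E2F3 (log2 0.25) and lower after si-E2F1 (log2 -0.24). The comparisons share the Control libraries. This pattern held for 4 of the 49 other tight junction genes tested (8.16%), against 2.13% of all genes. It also held for 1 of 14 adherens junction genes (7.14%), CTNNA1, and for none of the 9 genes. The pattern was picked after the values were seen, and its frequency was not tested.

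**Figure D4:**
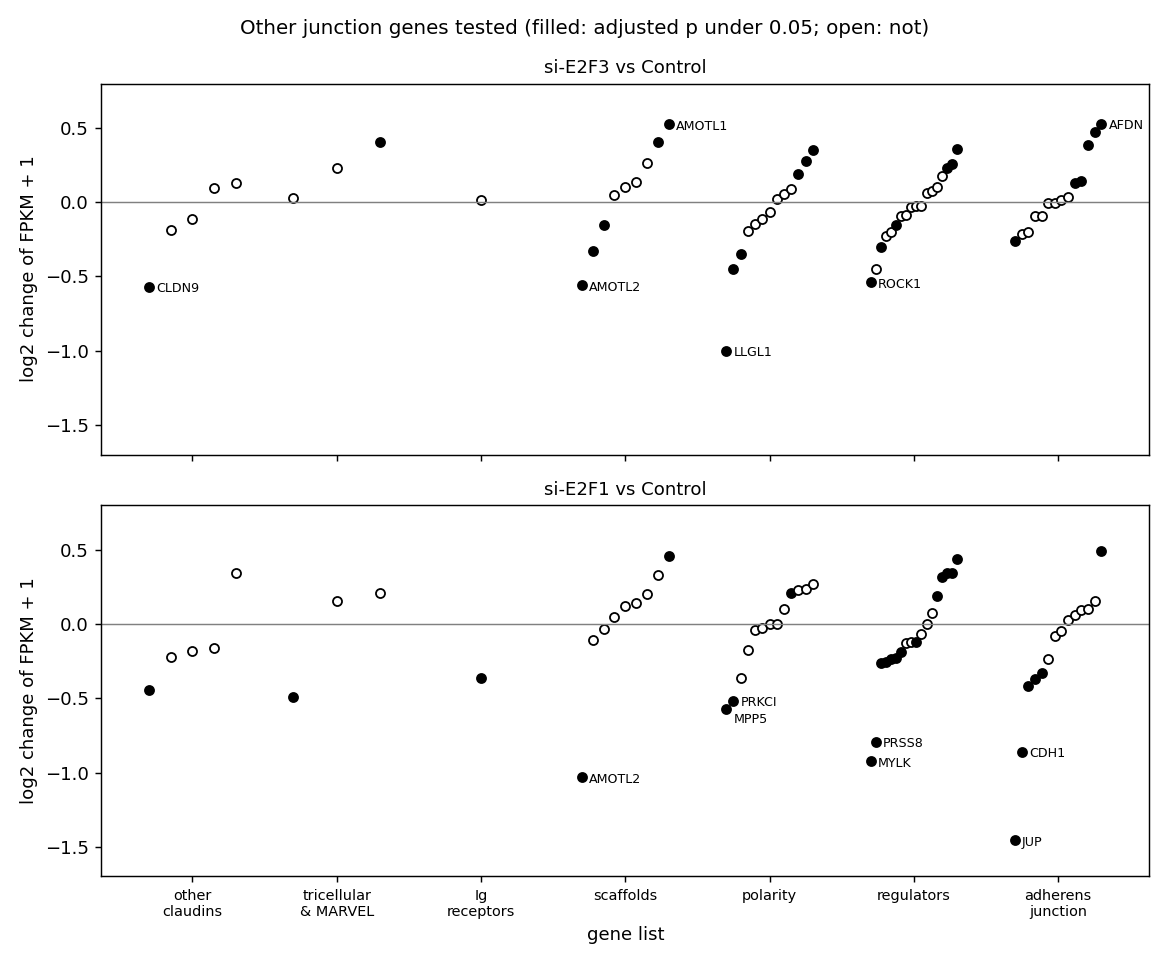
Log2 difference of FPKM + 1 (vertical axes) of the other tight junction genes and adherens junction genes that were tested, grouped by list along the horizontal axis and ordered by value within a list, for si-E2F3 against Control (top) and si-E2F1 against Control (bottom). Filled points have an adjusted p under 0.05, and called genes with a change of at least 0.5 are named. JUP lies lowest after si-E2F1, at -1.46, and LLGL1 lowest after si-E2F3, at -1.001.

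The neighbouring adherens junction was described by 14 genes, all tested. After si-E2F3, 5 rose (21.1% of all genes) and 1 fell (16.4%), and after si-E2F1, 1 rose (20.5%) and 5 fell (17.3%). In each comparison 42.9% of the 14 were called, close to the share of all genes. JUP (plakoglobin), which binds cadherins in adherens junctions and desmosomes, averaged 152 ± 6.58 FPKM after si-E2F3, 58.5 ± 2.87 FPKM after si-E2F1 and 162 ± 8.87 FPKM in Control (SD, n = 3 each). JUP fell by 1.46 on the log2 scale after si-E2F1 (SE 0.05; limma adjusted p = 1.03e-07) and was at -0.09 after si-E2F3 (limma adjusted p = 0.202), with a direct difference of 1.36 (SE 0.05; limma adjusted p = 1.09e-07). CDH1 (E-cadherin) averaged 25.1 ± 2.62 FPKM after si-E2F3, 15.4 ± 0.951 FPKM after si-E2F1 and 28.8 ± 0.505 FPKM in Control. It fell by 0.86 after si-E2F1 (SE 0.08; limma adjusted p = 1.89e-05), and its log2 difference of -0.20 after si-E2F3 did not pass (limma adjusted p = 0.0647), though it did with RLE scaling (log2 -0.24; adjusted p = 0.0258) and without si-E2F3 replicate 1 (log2 -0.28; adjusted p = 0.0125). AFDN (afadin), which ties nectins to actin and binds ZO-1 and JAM-A, rose after si-E2F3 (log2 0.53; limma adjusted p = 0.00117) and after si-E2F1 (log2 0.49; limma adjusted p = 0.00162).

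Transcription factors and splicing regulators known to act on epithelial junction genes were listed as well, 14 in all with 11 tested. After si-E2F3, 1 rose and 1 fell (18.2% called, against 37.6% of all genes), and after si-E2F1, 2 rose and 4 fell (54.5% called, against 37.8% of all genes). KLF4, an activator of epithelial genes, averaged 15.4 ± 0.415 FPKM after si-E2F3, 24.2 ± 0.784 FPKM after si-E2F1 and 35.6 ± 1.35 FPKM in Control (SD, n = 3 each). It fell by 1.16 after si-E2F3 (SE 0.05; limma adjusted p = 3.07e-07) and by 0.54 after si-E2F1 (SE 0.05; limma adjusted p = 3.05e-05). ELF3, an epithelial ETS factor, rose by log2 0.58 after si-E2F3 (limma adjusted p = 6.48e-06) and 0.32 after si-E2F1 (limma adjusted p = 2.72e-04). SNAI2 (Slug), a repressor of CDH1 and of claudin genes, fell by 0.53 after si-E2F1 (limma adjusted p = 4.99e-04) and was at -0.17 after si-E2F3 (limma adjusted p = 0.115).

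For each member called in any comparison, the genes that tracked it most closely were sought among 9671 tested genes averaging at least 5 FPKM. The measure was Pearson's r of log2(FPKM + 1) over the 9 libraries. No such search was made for CLDN7 and OCLN, which were called in no comparison. The libraries fall into 3 groups, so a high r mostly says that group means lie in the same order with similar spacing. The values are a description. CLDN4 was tracked by FSTL3 (r = 0.996) and AGRN (0.990), and CLDN1 by SAR1A (0.988) and STYX (0.983). For CGN the closest were ZFYVE1 (0.981) and VPS54 (0.971). TJP1 was closest to TAF2 (0.979) and CC2D1A (0.969), and TJP3 to DHX33 (0.977) and RTL10 (0.975). F11R was closest to GDAP2 (0.988) and SCAMP2 (0.966), and MARVELD2 to SCPEP1 (0.983) and CNKSR3 (0.974). Genes with r over 0.95 numbered 70 for CLDN4, 58 for CLDN1 and 53 for MARVELD2, against 14 for CGN, 13 for TJP3, 11 for TJP1 and 8 for F11R. Among the 9 themselves, the highest r was that of CLDN1 with CGN (0.984) and the lowest that of F11R with MARVELD2 (-0.88). The first was above the r of both genes named for CGN, because CLDN1 and CGN averaged under 5 FPKM and were not searched.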

How the data were processed

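The authors deposited FPKM per gene and library, to 2 decimals, per the file headers. Per the labels' protocols, extraction used a mirVana kit and libraries followed standard Illumina methods. Trimmomatic, TopHat, HISAT2, HTSeq, DESeq and GRCh38 are named in the submitters' processing notes; their versions and roles, and the strand setting, are not stated there. Of 59107 entries, 58381 had Ensembl identifiers and 12 further text entries per library were left out. Names and coordinates are from GENCODE 29 (GRCh38), with 120 identifiers unnamed, and promoters from RefSeq (GRCh38.p14).

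Genes of at least 1 FPKM in 3 of 9 libraries (13777) were fitted as log2(FPKM + 1) with limma 3.58.1 (R 4.3.3, trend, group means, all libraries, no block). All p-values are two-sided and adjusted by Benjamini-Hochberg across the 13777 genes, with calls at 0.05. The fit was also run on simulated data with far fewer changed genes than were called here, and no result rests on that run. Tables and figures used Python 3.11.15, pandas 2.3.3 and matplotlib 3.10.9. Without counts, the precision of a single level is unknown.

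The 9 members and all lists were chosen with earlier results of these data known. Of each list, up to 3 called genes with the largest change against Control and a mean of at least 1 FPKM were named, plus CDH1, and the 2 genes most correlated with each called member. A further gene that was to be named in any case is not reported here. Alternatives tried were an added constant of 0.1, no filter or 5 FPKM, RLE or upper-quartile scaling, only the libraries compared, a replicate term, and leaving out each library. Libraries shared at most 0.726% of identical values.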

Additional observations from a re-analysis of the deposited data

How the results depend on the processing

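Results are limited by 3 libraries per group, by FPKM without counts, and by an added constant that shrinks low genes. Leaving out each library in turn gave 243 values for the 9 genes: 231 kept their direction and their side of the threshold, 8 lost a call, 1 gained one and 3 changed sign. These include fits without a library of the group not compared, in which the log2 change cannot move and only the p-value can. Over all left-out libraries, 5 to 6 of the 9 were called after si-E2F3, 3 to 4 after si-E2F1 and 4 to 5 between the knockdowns. Sign changes were all of values that were not called: TJP3 after si-E2F1 without Control replicate 2 (log2 0.0064; range over left-out libraries -0.15 to 0.0064), and CLDN7 after si-E2F3 without si-E2F3 replicate 1 (0.030) or replicate 2 (0.032) and with upper-quartile scaling (0.0020; range over left-out libraries -0.10 to 0.032). Among the other genes, CXADR after si-E2F3 turned with RLE scaling (-0.027) and without Control replicate 1 (-0.00049) or si-E2F3 replicate 1 (-0.0072; range -0.0072 to 0.033), and AFDN between the knockdowns without si-E2F3 replicate 1 (-0.048; range -0.048 to 0.13). With a filter of 5 FPKM, CLDN1 and CGN were not tested and 2 of the remaining 7 were called after si-E2F1, against 46.9% of all genes under that filter. As shares of the 3 claudins CLDN1, CLDN4 and CLDN7 alone, CLDN4 held 37.6% after si-E2F3, 35.7% after si-E2F1 and 60.0% in Control, CLDN7 held 55.6% after si-E2F3, 56.2% after si-E2F1 and 31.8% in Control, and CLDN1 held 6.82% after si-E2F3, 8.16% after si-E2F1 and 8.27% in Control; the smaller sum itself sets these values. Same-numbered libraries did not deviate together in every pair (correlations of -0.11 to -0.07 for si-E2F3 with Control, -0.07 to -0.01 for si-E2F1 with Control and 0.03 to 0.11 between the knockdowns). Correlations this small cannot settle whether a shared number marks a shared batch. With a replicate block, 4871 genes were called after si-E2F3 (5179 without it), 4936 after si-E2F1 (5210) and 5982 between the knockdowns (6274). The block changed the side of the threshold of none of the 27 values of the 9 genes.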
